A study of Rattus norvegicus with 54 samples.

Results

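The 8 genes described here encode proteins of the cellular stress responses, followed in rat cortical neurons that carried or lacked an Mbd3 virus and were kept with or without magnesium. They are Hspa5 (ENSRNOG00000018294), Ddit3 (ENSRNOG00000006789), Trib3 (ENSRNOG00000007319), Asns (ENSRNOG00000007546), Hmox1 (ENSRNOG00000014117), Hspb1 (ENSRNOG00000023546), Hspa8 (ENSRNOG00000034066) and Txnip (ENSRNOG00000021201). They were chosen by name, as known stress genes, with earlier results of these data known. Each was kept because its identifier lay on the chromosome given for it. All 8 were present among the 30560 genes of the count table, and all 8 were among the 17172 genes that passed the filter on low counts. On mRatBN7.2, the build of the count table, Hspa5 spans chr3:18055405-18059891, Ddit3 chr7:63116380-63121201, Trib3 chr3:140809043-140814497 and Asns chr4:35785237-35803423. Hmox1 spans chr19:13467244-13474079, Hspb1 chr12:20794028-20795743, Hspa8 chr8:41183264-41187259 and Txnip chr2:184092991-184096886.

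RNA was sequenced from cultures of cortical neurons prepared from rat embryos at stage E18. The study compared 3 kinds of culture: untransfected cultures, cultures given the adeno-associated virus AAV-SYN-GFP, and cultures given AAV-SYN-rMBD3-GFP, which overexpresses Mbd3. Each was kept in medium with magnesium or, to induce epileptiform activity, in medium without it, and was sampled at 2, 6 and 24 h, which made 18 groups of 3 libraries and 54 libraries in all. The SYN promoter drives both viral constructs, so the GFP cultures share the virus, the promoter and GFP with the rMBD3 cultures, and the untransfected cultures share none of these. The question named by the study's title is the role of Mbd3, a subunit of a chromatin-remodelling and histone deacetylase complex, in epileptogenesis.

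Cells answer damage to their proteins through several linked programmes. Unfolded protein in the endoplasmic reticulum (ER) induces the chaperone BiP, encoded by Hspa5. Phosphorylation of a translation initiation factor, the integrated stress response, favours the transcription factor ATF4, whose targets include Ddit3 (the transcription factor CHOP), Trib3 (a pseudokinase that restrains ATF4 signalling) and Asns (asparagine synthetase). Oxidants and haem induce Hmox1 (haem oxygenase 1) through NRF2, and heat shock factors induce the small heat shock protein gene Hspb1, whereas Hspa8 encodes the cytosolic chaperone Hsc70, which is abundant without stress. Txnip encodes an inhibitor of thioredoxin and of glucose uptake, and its transcription follows glucose. Medium without magnesium relieves the block of NMDA receptors, which raises neuronal firing and calcium entry.

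The upstream sequences of 3 genes are shown because they hold matches to response elements of these programmes. They are the bases just before the start site, from RefSeq on GRCr8, printed 5′ to 3′ on the strand of the gene, with the matching letters in capitals. Of the 8 genes, 6 had an entry in the RefSeq promoter table, and 300 bases of each, from 250 before to 50 after the start, were searched on both strands. Hmox1 and Txnip had no entry and were not searched for any element.
Hspa5, chr3:38452886-38453015, plus strand: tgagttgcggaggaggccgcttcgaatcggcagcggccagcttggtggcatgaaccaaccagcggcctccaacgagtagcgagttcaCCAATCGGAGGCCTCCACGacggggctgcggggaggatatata
Trib3, chr3:161275534-161275663, minus strand: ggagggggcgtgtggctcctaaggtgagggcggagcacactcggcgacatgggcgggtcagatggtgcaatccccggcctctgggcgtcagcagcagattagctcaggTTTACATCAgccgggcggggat
Hspa8, chr8:50080294-50080513, plus strand: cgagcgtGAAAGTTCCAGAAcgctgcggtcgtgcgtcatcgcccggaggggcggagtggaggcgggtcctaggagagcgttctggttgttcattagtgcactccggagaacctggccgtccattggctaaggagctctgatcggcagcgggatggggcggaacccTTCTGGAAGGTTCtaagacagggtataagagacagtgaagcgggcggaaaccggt

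In Hspa5 the capitals mark an ER stress response element, CCAAT and CCACG held 9 bases apart, which lay 43 to 25 bases before the start. This element was in 0.0657% of the 33469 promoters of that length. In Trib3 they mark a match to the C/EBP-ATF site, TGATGNAAN, on the opposite strand 22 to 14 bases before the start, and 3.97% of promoters held this motif. The stricter form TGATGCAAT, held by 0.188% of promoters, was in none of the searched windows. In Hspa8 they mark 2 heat shock elements of 3 repeats, at 213 to 201 and at 55 to 43 bases before the start, a motif found in 0.798% of promoters. The searched windows of Ddit3, Asns and Hspb1 held none of these letters, nor those of the antioxidant response element core TGACNNNGC (12.1% of promoters), the E-box CACGTG (6.42%) or the carbohydrate response element (0.00299%). A match describes letters and does not show binding.

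Libraries held 14448927 to 39691105 counts assigned to genes. Values below are CPM, a gene's counts relative to the total of its library, scaled between libraries by the TMM method. The gene with the largest rise in the rMBD3 cultures over the GFP cultures, ENSRNOG00000028956, ran from 2291 to 18263 CPM there. It ran from 113 to 269 in the GFP cultures and from 121 to 271 in the untransfected ones, so every library labelled rMBD3 lay above every other library. The gene was picked for this rise in the same data, so it is no separate check of the construct. The files name no genes, so markers of neurons and of other cell types were not analysed here. In bulk samples fewer cells of a type and less RNA per cell cannot be told apart.

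Replicate 1 stood apart from replicates 2 and 3 for most of the 8 genes. Replicate 1 of the untransfected and GFP cultures with magnesium, at 2 h and 6 h, held 646 to 943 CPM of Hspa5 in 4 libraries, against 1925 to 7077 in the other 8 libraries of the same groups. These 4 libraries also lay below those 8 for Hspa8 and Txnip, and 1 of them, the untransfected library at 2 h, held 8.02 CPM of Hspb1 and 4.99 CPM of Trib3. The spread between libraries of 1 group, as an SD of log2 CPM, was 0.77 for Hspa5 with replicate 1 and 0.27 without it. The same pair of values was 0.45 and 0.15 for Hmox1, 1.02 and 0.35 for Hspb1, 0.96 and 0.50 for Trib3, 0.58 and 0.34 for Ddit3, and 0.23 and 0.21 for Hspa8. Genes of the mitochondrial chromosome took a median of 3.12% of counts in replicate 1, 1.88% in replicate 2 and 2.07% in replicate 3, and the part of this in the results was not tested. Each result whose call changed without replicate 1 is therefore also given without it. Replicate 1 was singled out after this spread was seen, so leaving it out lowers the spread by selection. Calls gained without it are descriptive and are no separate test. Other estimates moved as well, and not all of these are given. Leaving out the 4 low libraries changed 1 call, named below.

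**Figure D1:**
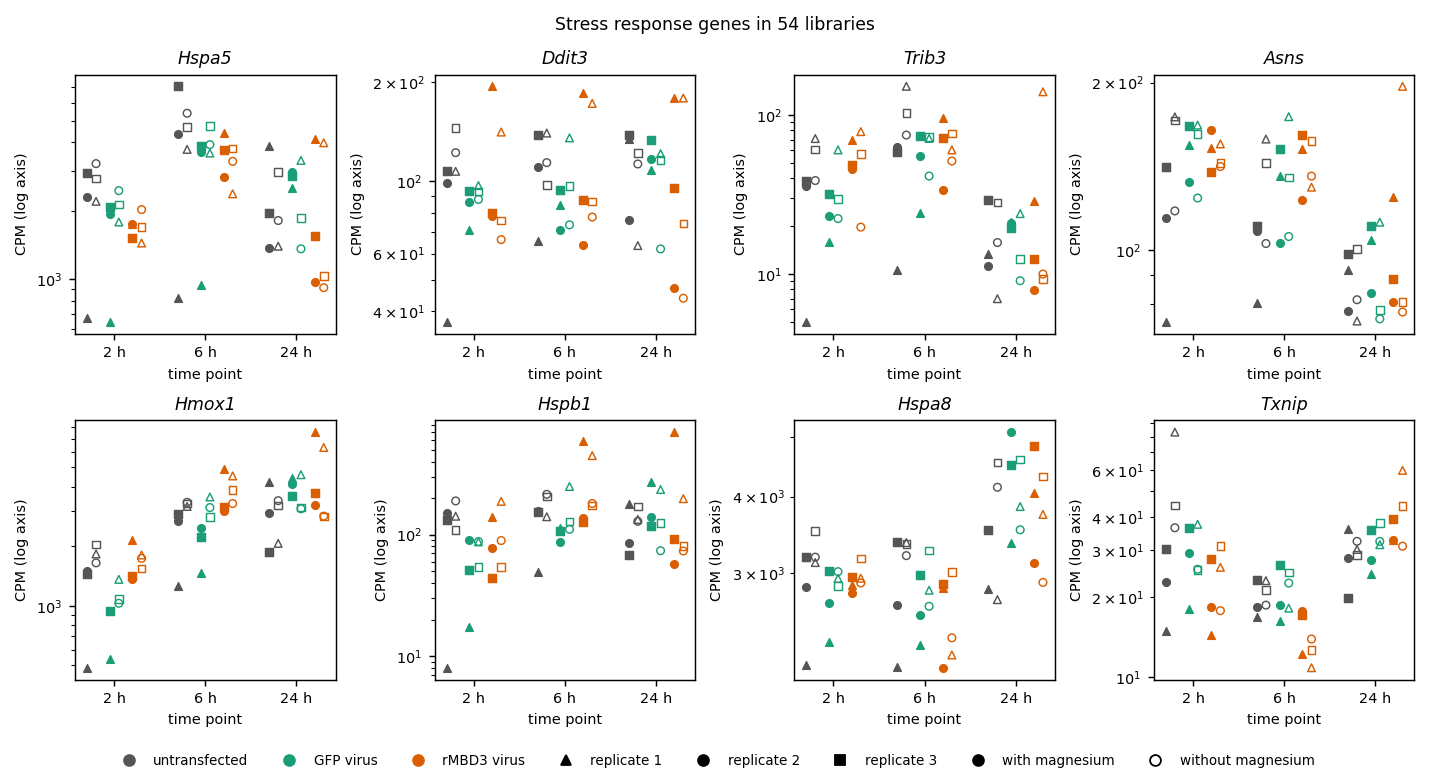
Level of each of the 8 genes in every library, in CPM on a log axis, by time point. Colours mark the construct, marker shapes the replicate number, and filled or open markers the medium with or without magnesium; the 4 low replicate 1 libraries of the untransfected and GFP cultures with magnesium at 2 h and 6 h, at 646 to 943 CPM of Hspa5, lie below the other 8 libraries of their groups for Hspa5, Hspa8 and Txnip, and overlap with them for the other 5 genes.

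Per kilobase of exon, the 8 genes covered a wide range of levels. Hmox1 was highest, at 1761 ± 902 CPM per kilobase (SD, n = 54), the rank of 7 among the 17172 genes tested. Hspa8 followed at 1273 ± 280, rank 17, and Hspa5 at 1025 ± 519, rank 24. These 3 genes differed by less than the SD of Hmox1. Hspb1 lay at 157 ± 129 and Ddit3 at 120.0 ± 42.3, Asns at 50.5 ± 13.5 and Trib3 at 23.5 ± 17.5 CPM per kilobase. Txnip was lowest, at 9.86 ± 4.43, rank 6636. Together the 8 genes took 0.321 to 1.60% of a library's counts.

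The time points were compared over all 6 combinations of construct and medium, so that each compares 18 with 18 libraries. By the labels a replicate number is a cell culture shared by the groups, so these libraries are not independent. The fit treated them as independent, so its SE and p-values can overstate the replication, here and in the comparisons below. Pairs of libraries with the same replicate number share a culture too, so counts of pairs are descriptive. Most genes of the transcriptome changed with time, and the members' counts are read against that. From 2 h to 24 h Hmox1, Hspb1 and Hspa8 rose, and Trib3 and Asns fell, which made 5 of 8 members past the adjusted p threshold of 0.05, against 69.5% of all genes tested. In the same comparison 34.2% of all genes rose and 35.3% fell. From 2 h to 6 h 4 of 8 passed, with Hspa5, Hmox1 and Hspb1 higher and Txnip lower, against 49.1% of all genes, 22.2% higher and 26.9% lower. From 6 h to 24 h 5 of 8 passed, with Hspa8 and Txnip higher and Hspa5, Trib3 and Asns lower, against 50.6% of all genes, 24.3% higher and 26.3% lower. These shares are near the background. Without replicate 1 the share of all genes tested was 75.2% from 2 h to 24 h, 57.5% from 2 h to 6 h and 60.3% from 6 h to 24 h, against which the members' calls without replicate 1 below are set. The 18 libraries of 2 h and the 18 of 24 h overlapped for all 8 genes, whereas 11.4% of all genes had no overlap between them.

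Hspa5, the ER chaperone with the ER stress response element printed above, was highest at 6 h. It held 646 to 3227 CPM at 2 h (median 1974), 825 to 7077 at 6 h (median 3745) and 915 to 4149.6 at 24 h (median 1909.7). The 6 h value was above the 2 h value in all 18 pairs of libraries that share construct, medium and replicate number, although the groups overlapped. The log2 fold change from 2 h to 6 h was 0.93 ± 0.24 (SE, adjusted p = 0.00107), and from 6 h to 24 h it was -0.71 ± 0.23 (adjusted p = 0.0115, lower in 15 of 18 pairs). The mean log2 differences after 6 h were -1.41 and -1.24 in replicates 2 and 3, with all 6 pairs lower in each. In replicate 1 the mean was 0.46, with 3 of 6 pairs lower and 3 higher. Of the 3 higher pairs, 2 started from the low 6 h libraries, from 825 to 3874 CPM in the untransfected and from 943 to 2519.5 CPM in the GFP cultures with magnesium, and the third was the rMBD3 cultures without magnesium, from 2373 to 3987 CPM. Without replicate 1 the fall was -1.31 and the 24 h level lay below the 2 h level, at -0.31 (adjusted p = 0.00865), where all libraries together gave 0.23 ± 0.23 and no call. Without replicate 2 or replicate 3 the fall after 6 h lost its call, at -0.45 for each, and the rise to 6 h lost its call without replicate 3 (0.83, adjusted p = 0.0669).

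Among the genes of the integrated stress response, Trib3 and Asns fell by 24 h and Ddit3 did not pass the test at any step. Trib3 held 4.99 to 78.5 CPM at 2 h (median 38.4), 10.5 to 151 at 6 h (median 66.7) and 6.99 to 139.7 at 24 h (median 14.6). Its log2 fold change from 6 h to 24 h was -1.60 ± 0.30 (adjusted p = 2.98e-05, lower in 16 of 18 pairs), the largest of the 8 genes at that step. By replicate number this fall was -1.06, -2.11 and -2.14. The Trib3 difference from 2 h to 6 h was 0.68 ± 0.30 with an adjusted p of 0.0539, and with the replicate block it was 0.69 with an adjusted p of 0.0369. Leaving out the 4 low libraries also brought that step past the threshold, at 0.76 (adjusted p = 0.028), as did leaving out replicate 1, at 0.85 (adjusted p = 0.000553). It also passed with DESeq2 and with edgeR on RLE factors, at 0.72 each (adjusted p = 0.025 and 0.043). From 2 h to 24 h Trib3 changed by -0.92 ± 0.30 (adjusted p = 0.0063), a call lost without replicate 2 (adjusted p = 0.0845) or replicate 3 (adjusted p = 0.0715). By replicate number that change was -0.55, -1.31 and -1.34. The highest value at 24 h, 139.7 CPM, came from replicate 1 of the rMBD3 cultures without magnesium, whose other 2 libraries held 9.99 and 9.27 CPM.

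Asns, the enzyme that makes asparagine, fell by less than Trib3. It held 74.2 to 174 CPM at 2 h (median 148), 80.4 to 174 at 6 h (median 135) and 74.5 to 197 at 24 h (median 86.1). The log2 fold change from 2 h to 24 h was -0.58 ± 0.10 (adjusted p = 5.2e-06, lower in 16 of 18 pairs), and most of it fell between 6 h and 24 h, at -0.45 ± 0.10. That step lost its call without replicate 3 (-0.39, adjusted p = 0.0536). The same rMBD3 library without magnesium that was highest for Trib3 was also highest for Asns at 24 h, at 197 CPM against 77.3 and 80.6 in the other 2 libraries of its group. Ddit3, the pro-apoptotic transcription factor, had medians of 92.9, 95.2 and 114 CPM at 2, 6 and 24 h, and its log2 difference from 2 h to 24 h was 0.13 with a 95% interval from -0.24 to 0.49.

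Hmox1 showed the largest rise with time. It held 486 to 2143 CPM at 2 h (median 1427), 1257 to 4935 at 6 h (median 3149) and 1866 to 7544 at 24 h (median 3317). The rise was 1.17 ± 0.14 on the log2 scale from 2 h to 6 h and 1.47 ± 0.15 from 2 h to 24 h, each in 18 of 18 pairs (adjusted p = 1.2e-08 and 1.06e-11). The step from 6 h to 24 h, 0.30 ± 0.14, did not pass (adjusted p = 0.0747). All 3 replicate numbers showed the rise to 24 h, at 1.95, 1.28 and 1.13, and without replicate 1 it was 1.27. Time accounted for 60.1% of the variance of log2 Hmox1 over the 54 libraries, the highest share of the 8 genes, against 0.734% for Ddit3.

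The 2 chaperone genes of the cytosol moved at different times. Hspb1, a small heat shock protein, held 8.02 to 189.7 CPM at 2 h (median 88.6), 48.9 to 587 at 6 h (median 147) and 57.4 to 699 at 24 h (median 127). It rose by 0.95 ± 0.31 from 2 h to 6 h (adjusted p = 0.00986, 16 of 18 pairs) and by 0.77 ± 0.31 from 2 h to 24 h (adjusted p = 0.0253, 11 of 18 pairs). By replicate number the 24 h difference was 2.03, -0.29 and 0.62, and without replicate 1 it was 0.21 (adjusted p = 0.165), while the step from 6 h to 24 h then fell by 0.56 (adjusted p = 0.00108). Without replicate 3 the rises to 6 h and to 24 h lost their calls as well (adjusted p = 0.132 and 0.122). Hspa8, the constitutive Hsc70 gene with the paired heat shock elements printed above, had medians of 2939 and 2824 CPM at 2 h and 6 h and was higher at 24 h, with 2712 to 5099 CPM (median 3795). Its log2 fold change from 6 h to 24 h was 0.47 ± 0.08 (adjusted p = 6.44e-06, 17 of 18 pairs), and the 3 replicate numbers gave 0.40, 0.51 and 0.48.

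Txnip, the thioredoxin inhibitor, dipped at 6 h. It held 14.4 to 83.2 CPM at 2 h (median 26.9), 10.9 to 26.4 at 6 h (median 18.2) and 19.8 to 59.8 at 24 h (median 32.4). The change from 2 h to 6 h was -0.64 ± 0.12 (adjusted p = 2.12e-05) and that from 6 h to 24 h was 0.87 ± 0.12 (adjusted p = 1.06e-07), each in 17 of 18 pairs. The 2 h and 24 h levels differed by 0.23 ± 0.12 (adjusted p = 0.0809), which passed only without replicate 1 (0.25, adjusted p = 0.0324). Txnip was thus lowest at the time when Hspa5 was highest.

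**Figure D2:**
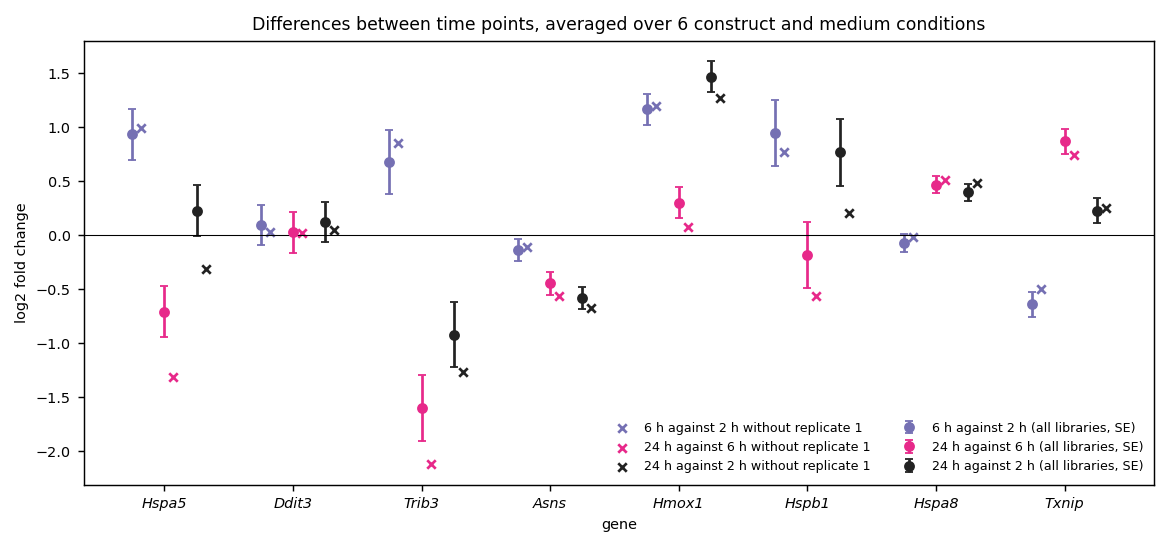
Log2 fold change of each gene between time points, averaged over the 6 construct and medium conditions. Dots with bars are the estimates from all libraries with their SE, and crosses are the estimates without replicate 1; Hmox1 is the highest at 24 h against 2 h, at 1.47, and the cross of Hspa5 lies below 0 where its dot lies above.

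The rMBD3 and GFP cultures were compared to ask what Mbd3 overexpression changed beside the virus and GFP. Over all times and media Hmox1 was the single member that passed the test, and it was higher in the rMBD3 cultures. That 1 of 8 stands against 11% of all genes tested, with 6.41% of them higher and 4.58% lower. Hmox1 held 1365 to 7544 CPM in the rMBD3 cultures (median 3081, n = 18) and 535 to 4595 in the GFP cultures (median 2633, n = 18), so the groups overlapped. Its log2 fold change was 0.52 ± 0.14 (adjusted p = 0.0148), and it was higher in 15 of 18 same-numbered pairs. By replicate number the mean differences were 0.96, 0.19 and 0.32. Leaving out replicate 1 gave 0.27 with the call kept (adjusted p = 0.00801), while leaving out replicate 2 or replicate 3 lost it (0.67 and 0.62, adjusted p = 0.0774 and 0.127). With the replicate block 2992 genes passed, against 1886 without it, and Hmox1 was again the single member.

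At single time points 0 members passed between rMBD3 and GFP, where 0.874% of all genes passed at 2 h, 0.221% at 6 h and 0.949% at 24 h. At an unadjusted p under 0.05 there were 1984, 1632 and 2996 genes, and 1, 3 and 0 members, and DESeq2 also called 0 members at each time. With the replicate block 458, 243 and 1131 genes passed, against 150, 38 and 163 without it, and again 0 members. The difference in Hmox1 was widest at 2 h. With magnesium the rMBD3 libraries held 2143, 1365 and 1407 CPM for replicates 1 to 3 and the GFP libraries 535, 943 and 941. Without magnesium the rMBD3 libraries held 1806, 1737 and 1541 and the GFP libraries 1360.0, 1029.7 and 1085. The 6 rMBD3 libraries all lay above the 6 GFP libraries, by a margin of 1365 against 1360.0 CPM at the nearest, and 1.49% of all genes tested had all 6 rMBD3 libraries above, out of 2.88% with no overlap in either direction. The log2 difference was 0.79 ± 0.25 with an adjusted p of 0.137, and with the replicate number blocked within each time point it was 0.80 with an adjusted p of 0.0368, where 6.03% of all genes passed. Without replicate 1 it was 0.62 (adjusted p = 0.00799), where 1.26% passed. At 6 h it was 0.57 ± 0.25 and higher in 6 of 6 pairs (adjusted p = 0.433), and at 24 h 0.20 ± 0.25 and higher in 3 of 6 pairs.

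Several members in the rMBD3 cultures at 24 h, Hspa5 and Ddit3 among them, took opposite positions in replicate 1 and in replicates 2 and 3. By replicate number the mean log2 differences from GFP at 24 h were 1.497, -0.624 and -0.532 for Trib3. They were 0.552, -0.64 and -0.497 for Hspb1, 0.614, -0.235 and -0.052 for Hmox1, and 0.537, -0.0072 and -0.134 for Asns. Txnip was above 0 in all 3, and Hspa8 gave 0.114, -0.499 and 0.0072. Hspa5 and Ddit3 split in this way at 2 h and 6 h as well. With magnesium the rMBD3 libraries held 4149.6, 964 and 1546 CPM of Hspa5 for replicates 1 to 3, against 2519.5, 2966 and 2838 in the GFP libraries. Without magnesium they held 3987, 915 and 1032, against 3334, 1358 and 1859. Replicate 1 of the rMBD3 cultures was thus above its GFP partner in both media, and replicates 2 and 3 below theirs. The log2 difference over all libraries was -0.23 ± 0.40, and without replicate 1 it was -0.98 (adjusted p = 0.0025). Without replicate 1 many more genes passed at 24 h, 1766 or 10.4% of those tested against 163 with all libraries, and the calls of Hspa5 and Ddit3 are 2 of these. Ddit3 held 179, 47.1 and 95.3 CPM with magnesium and 179, 43.8 and 74.1 without it in the rMBD3 libraries, against 108, 117 and 133, and 121, 62.0 and 116, in the GFP libraries. Its log2 difference was -0.08 ± 0.32, and without replicate 1 it was -0.72 (adjusted p = 0.0421). Over all times Hspa5 without replicate 1 was lower in the rMBD3 cultures, at -0.49 (adjusted p = 0.00275, where 14.5% of all genes passed), against -0.11 ± 0.23 with all libraries.

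The remaining members did not pass between rMBD3 and GFP. Txnip at 6 h held 10.9 to 17.7 CPM in the 6 rMBD3 libraries (median 13.3) and 16.3 to 26.4 in the 6 GFP libraries (median 20.6), a log2 difference of -0.59 ± 0.21 that was lower in 6 of 6 pairs, with an adjusted p of 0.269. Hspb1 at 6 h differed by 1.09 ± 0.53 and was higher in 6 of 6 pairs (adjusted p = 0.52), with 587 and 448 CPM in the 2 rMBD3 libraries of replicate 1 and 127 to 181 in the other 4. By replicate number that difference was 1.60, 0.68 and 0.34. Trib3 over all conditions differed by 0.60 ± 0.30 (adjusted p = 0.195), which came from replicate 1 at 1.21, while replicates 2 and 3 gave -0.14 and 0.09. Asns and Hspa8 differed by 0.09 and -0.05 over all conditions, with 95% intervals from -0.11 to 0.29 and from -0.21 to 0.11. The median log2 fold change of the 8 members was 0.12, against -0.03 over all genes tested.

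**Figure D3:**
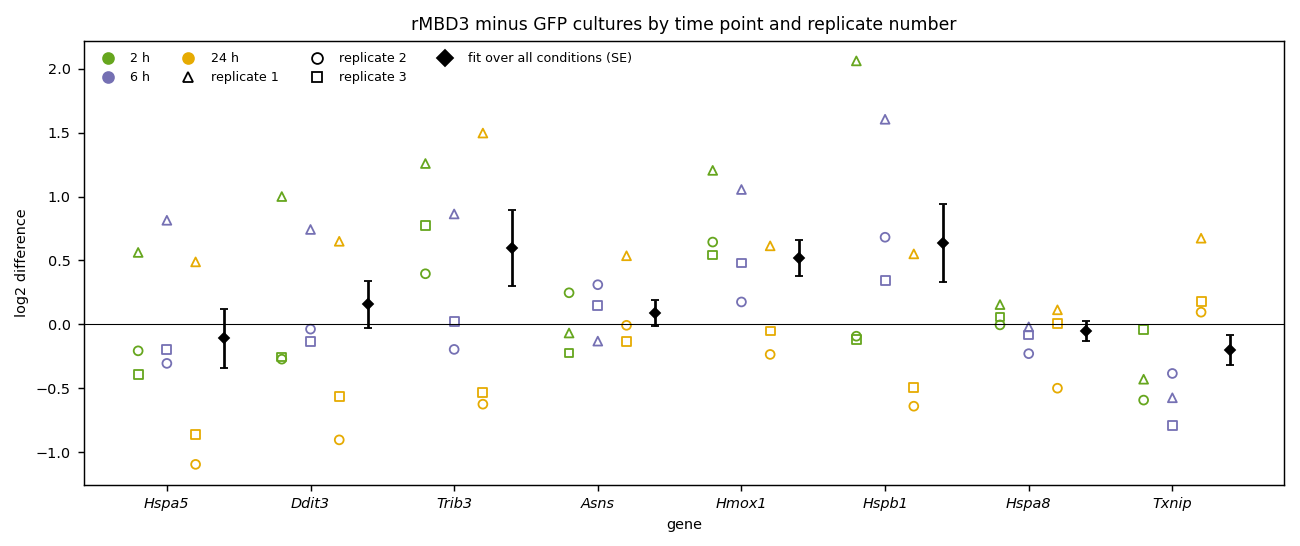
Log2 difference between rMBD3 and GFP cultures for each gene, by time point (colour) and replicate number (marker shape), each open marker being the mean over both media. Black diamonds are the estimates over all conditions with their SE; Hmox1 is at 0.52, and replicate 1 (triangles) lies above replicates 2 and 3 for Hspa5, Ddit3, Trib3, Hmox1, Hspb1 and Hspa8 at every time.

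The GFP and untransfected cultures were compared as the background of virus and GFP, and 0 members passed. Of all genes, 0.297% passed over all conditions, 0% at 2 h, 0% at 6 h and 0.0233% at 24 h, with 1730, 459, 762 and 1374 genes at an unadjusted p under 0.05. DESeq2 called 280, 11, 2 and 83 genes and again 0 members, and the replicate block gave 230, 4, 1 and 22 genes and 0 members. The nearest member was Hmox1 at 2 h, with 535 to 1360.0 CPM in the GFP cultures (median 986) and 486 to 2040.3 in the untransfected ones (median 1572). Its log2 difference was -0.59 ± 0.25, lower in 5 of 6 pairs, and without replicate 1 it was -0.72 (adjusted p = 0.0141), 1 of 5 genes or 0.0294% called there. At 24 h without replicate 1 the share was 0.00588%, with 0 members. The rMBD3 cultures at 2 h (median 1639) thus lay near the untransfected ones in Hmox1, and the GFP cultures, which both comparisons share, lay lowest. Over all conditions the 8 differences ran from -0.26 for Hspb1 to 0.18 for Asns.

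The media were compared to ask what epileptiform activity changed, and 0 members passed. Of all genes 0% passed over all conditions, and likewise 0% at 2 h, at 6 h and at 24 h. At an unadjusted p under 0.05 there were 1565, 132, 355 and 1988 genes, and DESeq2 called 10, 1, 0 and 103 genes and 0 members. The replicate block gave 0, 0, 0 and 36 genes, blocking that number within each time point gave 429, 0, 0 and 1186, and both gave 0 members. Without replicate 1, 1.04% of all genes passed at 24 h, with 0 members. All 8 differences over all conditions were above 0, with a median of 0.14 on the log2 scale against -0.01 over all genes. These signs did not hold at every time or setting. At 24 h 3 of 8 were above 0, with a median of -0.09: Hspb1 differed by -0.39, Hspa5 by -0.25, Ddit3 by -0.20, Hmox1 by -0.17 and Hspa8 by -0.01, against 0.39 for Trib3, 0.23 for Txnip and 0.01 for Asns. At 2 h all 8 were above 0, with a median of 0.37, and at 6 h 7 of 8, with a median of 0.16. Without replicate 1 the differences over all conditions were below 0 for Ddit3 (-0.052), Asns (-0.027) and Trib3 (-0.017), and with the 4 low libraries left out for Hspa5 (-0.11) and Ddit3 (-0.043). The highest was Trib3, with 6.99 to 151 CPM without magnesium (median 51.3, n = 27) and 4.99 to 95.1 with it (median 29.1, n = 27), a log2 difference of 0.49 ± 0.24 (adjusted p = 0.55). By replicate number it was 1.35, -0.12 and 0.06, and without replicate 1 it was -0.017. Txnip followed at 0.25 ± 0.10 (adjusted p = 0.531), with 0.64, 0.08 and 0.03 by replicate number, and Hmox1 at 0.22 ± 0.12 (adjusted p = 0.571), with 0.47, 0.11 and 0.20. Replicate 1 gave the largest difference of the 3 numbers for all 8 genes.

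The 4 low libraries named above all belong to the medium with magnesium at 2 h and 6 h. At 2 h Txnip in the untransfected cultures held 83.2, 36.4 and 44.1 CPM without magnesium and 15.0, 22.7 and 30.3 with it, and the groups did not overlap. Trib3 and Hmox1 did not overlap there either, and 6.49% of all genes had no overlap between these 3 and 3 libraries, with 3.52% wholly above without magnesium. In that single condition the log2 difference was 1.27 ± 0.29, with an unadjusted p of 9.95e-05 and an adjusted p of 1.00. Over the 3 constructs at 2 h Txnip differed by 0.55 ± 0.17, and by 0.40 with the 4 low libraries left out and 0.09 without replicate 1. Hspa5, whose induction marks ER stress, differed by 0.08 ± 0.19 over all conditions, with a 95% interval from -0.29 to 0.45, and by -0.11 with the 4 low libraries left out. Those 4 were chosen after the data were seen and lay below the other 8 libraries of their groups for Hspa5 and Txnip. Leaving them out therefore had to lower both differences, and it is no check of the medium effect.

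**Figure D4:**
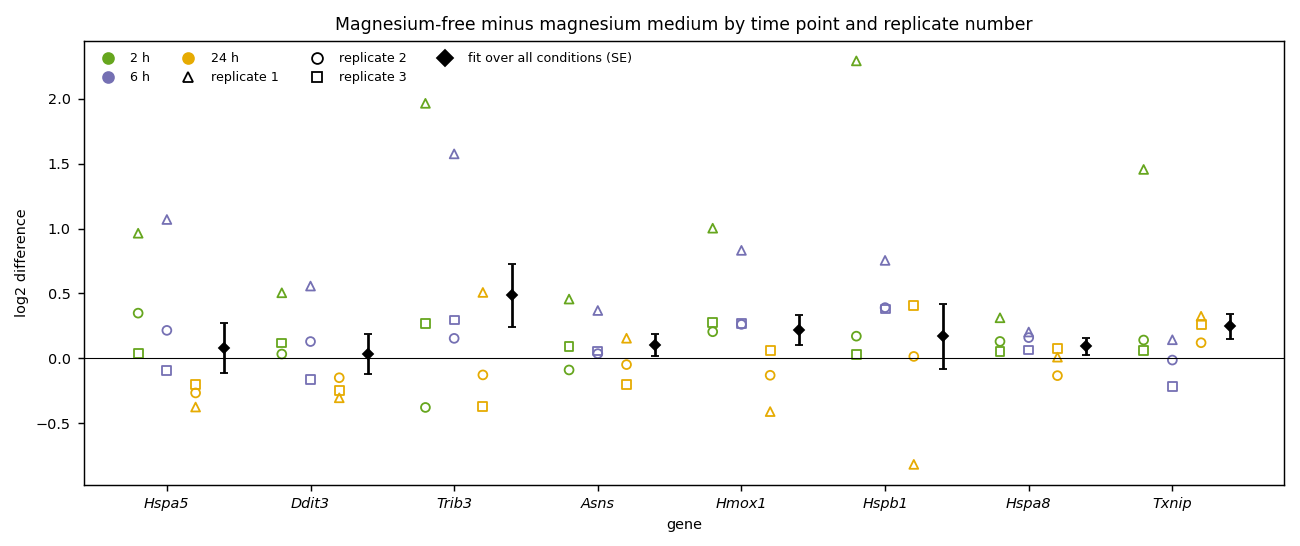
Log2 difference between medium without and with magnesium for each gene, by time point (colour) and replicate number (marker shape), each open marker being the mean over the 3 constructs. Black diamonds are the estimates over all conditions with their SE, 0.49 for Trib3; the markers far above 0 are those of replicate 1 (triangles) at 2 h and 6 h.

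Whether these effects differed between conditions was tested directly, and 0 members passed. The rMBD3 effect at 24 h against that at 2 h passed for 0.0175% of all genes, and the medium effect at 24 h against that at 2 h and the rMBD3 effect without against with magnesium passed for 0% each. At an unadjusted p under 0.05 there were 1405, 565 and 472 genes, and DESeq2 called 11, 5 and 0 genes and 0 members, as the replicate block did with 6, 0 and 0 genes. The rMBD3 effect on Hmox1 was -0.58 ± 0.35 on the log2 scale at 24 h relative to 2 h (adjusted p = 0.652), and the 3 replicate numbers gave -0.59, -0.88 and -0.60. Without replicate 1 this difference was -0.78 (adjusted p = 0.0337), where 0.318% of all genes passed. All 8 medium effects were lower at 24 h than at 2 h, and 0 passed. The median difference was -0.33, against -0.02 over all genes, and 46.7% of all genes were above 0. With the low libraries named above left out, some of which enter the 2 h effect, Trib3 was at 0.056. With a replicate number left out, Hspb1 reached 0.12 and Txnip 0.10. The other members stayed below 0 at every setting. The 8 genes were positively correlated within groups, as given below, so their signs are not independent. In the 15 comparisons within a single condition, 3 libraries against 3, 0 of 120 member tests passed, against 0.0128% of all tests, and the smallest adjusted p was 0.549. Without replicate 1, which leaves 2 libraries against 2, 1 passed, Hspa5 in rMBD3 against GFP with magnesium at 24 h, at -1.22 ± 0.26 (adjusted p = 0.00629). In that setting 0.819% of all tests passed, and 10.1% of the genes in that comparison.

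Likeness among the 8 genes differed between group means and single libraries. Over the 18 group means of log2 CPM, which share libraries and depth between genes, Pearson's r was 0.87 for Hmox1 with Hspb1, 0.78 for Trib3 with Asns, 0.73 for Hspa5 with Hspb1 and 0.70 for Hspa8 with Txnip. At the other end Asns with Hspa8 gave -0.62 and Trib3 with Hspa8 gave -0.54. Without replicate 1 the value of Hmox1 with Hspb1 was 0.55, that of Trib3 with Asns 0.75, and that of Hspa5 with Trib3 moved from 0.64 to 0.85. With the group means subtracted, the deviations over the 54 libraries were positively correlated for all 28 pairs of genes. The median r was 0.54, and the range ran from 0.14 to 0.84. The low replicate 1 libraries named above, which belong to particular conditions, enter these deviations. Hmox1 with Hspb1 gave 0.84, Trib3 with Asns 0.82 and Hspa5 with Hmox1 also 0.82, Ddit3 with Trib3 and with Hspb1 0.77 each, and Hspa8 with Txnip 0.36. The share of positive pairs over all genes, and these values without replicate 1, were not computed. The spread within groups was larger with replicate 1 than without it, and its part in these values was not tested. Of the group means, 17 of 28 pairs were positive. Outside the 8, the gene with the pattern most like each member over the 18 group means reached an r of 0.68 for Ddit3 and of 0.90 to 0.98 for the other members. For Hmox1, 380 genes had an r above 0.9, against 6 for Trib3 and 2 for Hspa5.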

How the data were processed

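The members and the lists were chosen with earlier results of these data known. Per the file headers, the authors made the deposited counts with featureCounts 2.0.0 on read pairs, with strand setting 2, a minimum mapping quality of 3 and the Ensembl 105 annotation of mRatBN7.2; per the labels' protocols, a stranded mRNA kit was used and reads were aligned with STAR to rn6, so the sources name different builds. Low counts were filtered with filterByExpr (at least 10, and 15 in total), and the rest scaled by TMM and fitted with edgeR 4.0.16 (quasi-likelihood, robust, 1 coefficient per group, 54 libraries) in R 4.3.3. P-values were adjusted by Benjamini-Hochberg over all 17172 genes at 0.05, the SE was derived from the F statistic, and all 8 members were named. The scripts were tested on simulated data without shared cultures. For rMBD3 against GFP over all conditions 72% of 2-fold changes were recovered. At 24 h 46% were, and 28% in the single condition with magnesium at 24 h. Of the calls, 6.0%, 7.4% and 2.4% were false. A member that did not pass can therefore still have changed 2-fold. Alternatives were DESeq2 1.42.0 (genes with a total of at least 10), RLE factors, no low-count filter, replicate blocks, each replicate number left out and, chosen after seeing the data, the 4 low libraries left out.

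The labels give each replicate number as a cell culture shared by the groups. Deviations from group means of same-numbered libraries correlated at 0.277 on average within a time point and 0.151 between time points, against -0.0902 for different numbers, and 91.9% of the within-time values exceeded 0.1, with a lowest of -0.172. The numbers were taken as pairs from the labels. The main fit left this pairing out. It entered the replicate blocks, the counts of pairs and the differences by replicate number. Replicates differed by more than sampling noise in every group. Planned pathway and cell type lists needed gene symbols, 0 identifiers matched the 47357 RefSeq genes, and these lists were not analysed here. The authors' log2 table was not used here.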

Additional observations from a re-analysis of the deposited data

How the results depend on the processing

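With DESeq2, RLE factors, no low-count filter, the replicate block or the 4 low libraries left out, every member called between time points in all libraries was called again in the same direction, and Trib3 from 2 h to 6 h was gained in all of these but the fit without the filter; the cause was not tested. Leaving out each replicate number gave 3 to 6 members called from 2 h to 24 h (5 in all libraries), 2 to 5 from 2 h to 6 h (4) and 3 to 6 from 6 h to 24 h (5). The calls over all genes moved too, to 9851 to 12781 (11943), 5179 to 9767 (8436) and 5413 to 10244 (8684). For members, leaving out a number gave 0 to 2 for rMBD3 against GFP over all conditions (1), 0 to 2 at 24 h (0), and 0 to 1 for rMBD3 against GFP at 2 h, for GFP against untransfected at 2 h, for the rMBD3 effect at 24 h minus that at 2 h and for the single conditions (0 each). The block per time point gave 1 member at 2 h for rMBD3 against GFP, and the replicate blocks changed no member's call other than Hmox1 there and Trib3 from 2 h to 6 h. Leaving out a replicate number leaves 2 libraries in each group. Every member had at least 114 counts in every library, and the precision of the comparisons was limited by the spread between replicates, shown above.

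The number of all genes called moved further. It was 1886 for rMBD3 against GFP over all conditions and 309 (without replicate 3) to 4083 (block per time point) under the alternatives. The same values were 150 and 1 to 1035 at 2 h, 38 and 1 to 533 at 6 h, 163 and 1 to 2174 at 24 h, and 3 and 0 to 54 for the difference of that effect between 24 h and 2 h. For GFP against untransfected they were 51 and 0 to 501 over all conditions, 0 and 0 to 19 at 2 h, 0 and 0 to 5 at 6 h, and 4 and 0 to 83 at 24 h. For the medium they were 0 and 0 to 429 over all conditions, 0 and 0 to 1 at 2 h, 0 and 0 to 1186 at 24 h, and 0 and 0 to 5 for the difference between 24 h and 2 h. The rMBD3 effect without minus with magnesium gave 0 and 0 to 1. From 6 h to 24 h they were 8684 and 5413 (without replicate 3) to 10244, and from 2 h to 6 h 8436 and 5179 (without replicate 3) to 9767. From 2 h to 24 h they were 11943 and 9851 (without replicate 3) to 12781.

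Of 1272 member values under the alternatives, 78 had the opposite sign to that in all libraries, 32 of them without replicate 1, and 1 of these was a call, Hspa5 at 24 h against 2 h without replicate 1; the cause was not tested. With the replicate block the values were -0.00066 for Ddit3 in GFP against untransfected at 24 h and 0.014 for Hspa5 in rMBD3 against GFP at 6 h. With the replicate block per time point the values were -0.010 for Ddit3 in GFP against untransfected at 24 h, -0.095 for Trib3 in GFP against untransfected at 24 h, -0.0034 for Asns in the medium effect at 24 h, -0.068 for Hspb1 in rMBD3 against GFP at 24 h and 0.11 for Hspa5 in rMBD3 against GFP at 6 h. With DESeq2, and to the same digits with RLE factors, the values were -0.0018 for Hspa8 in GFP against untransfected over all conditions, -0.013 for Asns in the medium effect at 24 h and 0.026 for Hspa5 in rMBD3 against GFP at 6 h. With the 4 low libraries left out the values were -0.020 for Hspa8 in GFP against untransfected over all conditions, 0.056 for Trib3 in the medium effect at 24 h minus that at 2 h, -0.13 for Hspa5 in the medium effect at 6 h, -0.043 for Ddit3 in the medium effect over all conditions, -0.11 for Hspa5 in the medium effect over all conditions, 0.051 for Hspa5 in the rMBD3 effect at 24 h minus that at 2 h, 0.016 for Trib3 in the rMBD3 effect at 24 h minus that at 2 h, 0.092 for Txnip in the rMBD3 effect without minus with magnesium and -0.018 for Ddit3 in 24 h against 6 h. Without the low-count filter the value was 0.0037 for Hspa5 in rMBD3 against GFP at 6 h. Leaving out each replicate number gave the following log2 values. For rMBD3 against GFP over all conditions the ranges were Ddit3 -0.34 to 0.38, Hspa5 -0.49 to 0.076, Hspa8 -0.10 to 0.042 and Hspb1 -0.046 to 0.89. For rMBD3 against GFP at 2 h the ranges were Asns -0.15 to 0.11, Ddit3 -0.24 to 0.52, Hspa5 -0.28 to 0.11 and Hspb1 -0.078 to 1.09. For rMBD3 against GFP at 6 h the ranges were Ddit3 -0.064 to 0.48, Hspa5 -0.22 to 0.18 and Trib3 -0.035 to 0.37. For rMBD3 against GFP at 24 h the ranges were Asns -0.095 to 0.33, Ddit3 -0.72 to 0.15, Hmox1 -0.16 to 0.37, Hspa5 -0.98 to 0.028, Hspa8 -0.24 to 0.055, Hspb1 -0.59 to 0.33 and Trib3 -0.59 to 1.04. For GFP against untransfected over all conditions the ranges were Hspa8 -0.038 to 0.031 and Txnip -0.16 to 0.093. For GFP against untransfected at 6 h the ranges were Hmox1 -0.22 to 0.018, Hspb1 -0.76 to 0.11 and Txnip -0.019 to 0.16. For GFP against untransfected at 24 h the ranges were Asns -0.061 to 0.20, Ddit3 -0.093 to 0.095, Trib3 -0.51 to 0.65 and Txnip -0.15 to 0.29. For the medium effect over all conditions the ranges were Asns -0.027 to 0.17, Ddit3 -0.052 to 0.10 and Trib3 -0.017 to 0.70. For the medium effect at 2 h the range was Asns -0.0037 to 0.25. For the medium effect at 6 h the ranges were Ddit3 -0.017 to 0.32 and Txnip -0.12 to 0.061. For the medium effect at 24 h the ranges were Asns -0.13 to 0.095, Hspa8 -0.066 to 0.055, Hspb1 -0.64 to 0.22 and Trib3 -0.29 to 0.51. For the rMBD3 effect at 24 h minus that at 2 h the ranges were Asns -0.12 to 0.43, Hspa5 -0.71 to 0.068 and Trib3 -1.28 to 0.10. For the medium effect at 24 h minus that at 2 h the ranges were Hspb1 -1.35 to 0.12 and Txnip -0.58 to 0.10. For the rMBD3 effect without minus with magnesium the ranges were Ddit3 -0.38 to 0.028, Hspa5 -0.65 to 0.12, Hspa8 -0.22 to 0.038, Hspb1 -1.02 to 0.24 and Txnip -0.10 to 0.063. For 24 h against 2 h the range was Hspa5 -0.31 to 0.59. For 24 h against 6 h the range was Ddit3 -0.058 to 0.091.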
